A study of Mus musculus with 18 samples.

Results

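The genes described are 10 acute phase and inflammatory genes of mouse white fat: Saa3, Hp, Hpx, Serpina3n, Orm1 and Lcn2, which encode acute phase proteins, the cytokines Il6, Il1b and Tnf, and the interleukin-1 antagonist Il1rn. They are a list of gene names, matched by symbol. All 10 were found among the 24091 symbols measured in epididymal fat (eWAT, a visceral depot beside the testis and epididymis) and the 51826 identifiers measured in inguinal fat (iWAT, a subcutaneous depot). RNA sequencing covered 18 libraries of C57BL/6 mice in 6 groups of 3: eWAT at ZT12 under shiftwork, eWAT at ZT12 under the control schedule, eWAT at ZT3 under shiftwork, eWAT at ZT3 under the control schedule, iWAT at ZT3 under shiftwork and iWAT at ZT3 under the control schedule. Control mice had 12 h of light and 12 h of dark each day. Shiftwork mice had that cycle on 4 days of each week and the reversed cycle on the other 3 days, for 24 weeks. ZT counts hours from lights-on of the regular cycle, so ZT3 was 8 AM and ZT12 was 5 PM, the hour of lights-off. The day of the weekly rotation on which fat was taken and the ages of the mice are not given in the sources used here. The labels also do not say whether libraries are separate animals, so p-values measure only the spread between these samples.

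Acute phase proteins are plasma and tissue proteins whose production changes during inflammation. The liver is their main source, but fat cells and macrophages also make several of them. Interleukin-6 acts on hepatocytes through gp130 and STAT3, while interleukin-1 and tumour necrosis factor act largely through NF-kB and with C/EBP factors. Obese white fat is known for raised haptoglobin, serum amyloid A3 and lipocalin 2, and for macrophages that make cytokines.

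Sequence around the start sites was searched for a fixed pattern of letters per motif, so other forms of these sites were not sought. RefSeq windows on GRCm38.p6, from 250 bases before to 50 bases after each start, matched 8 of the 10 genes, with 10 windows in all. Hp and Orm1 had none. Both strands were searched for an NF-kB motif (GGG, any 2 bases, then TTTCC), a C/EBP motif (TTGCNNAA), a STAT motif (TTCNNNGAA) and the E-box CACGTG read by clock factors, and no 2 of the matches overlapped. The windows of Saa3, Hpx, Serpina3n and Il1rn are printed because each of these genes stood above the compared group in every library, at ZT12 against ZT3 or under shiftwork in iWAT. Capitals mark the match. Saa3 lies on the minus strand at chr7:46715627-46715926, Hpx on the minus strand at chr7:105600067-105600366, Serpina3n on the plus strand at chr12:104406458-104406757, and the third Il1rn window on the plus strand at chr2:24345121-24345420.
Saa3: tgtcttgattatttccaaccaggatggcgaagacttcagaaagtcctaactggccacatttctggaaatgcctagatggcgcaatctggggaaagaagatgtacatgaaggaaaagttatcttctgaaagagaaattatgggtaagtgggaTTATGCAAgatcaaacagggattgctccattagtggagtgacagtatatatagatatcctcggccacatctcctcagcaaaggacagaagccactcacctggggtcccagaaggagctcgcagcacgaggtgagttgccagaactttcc
Hpx: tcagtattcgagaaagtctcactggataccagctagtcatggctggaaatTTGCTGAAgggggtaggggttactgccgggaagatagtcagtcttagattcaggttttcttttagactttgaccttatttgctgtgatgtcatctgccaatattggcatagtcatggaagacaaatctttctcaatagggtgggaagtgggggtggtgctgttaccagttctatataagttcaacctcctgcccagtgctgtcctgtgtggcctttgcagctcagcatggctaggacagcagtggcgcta
Serpina3n: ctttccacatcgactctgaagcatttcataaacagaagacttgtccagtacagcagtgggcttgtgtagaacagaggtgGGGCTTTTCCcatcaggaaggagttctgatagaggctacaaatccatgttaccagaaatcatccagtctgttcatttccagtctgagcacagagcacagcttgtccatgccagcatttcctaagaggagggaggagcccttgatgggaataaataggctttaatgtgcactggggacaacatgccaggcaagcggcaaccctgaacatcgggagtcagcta
Il1rn: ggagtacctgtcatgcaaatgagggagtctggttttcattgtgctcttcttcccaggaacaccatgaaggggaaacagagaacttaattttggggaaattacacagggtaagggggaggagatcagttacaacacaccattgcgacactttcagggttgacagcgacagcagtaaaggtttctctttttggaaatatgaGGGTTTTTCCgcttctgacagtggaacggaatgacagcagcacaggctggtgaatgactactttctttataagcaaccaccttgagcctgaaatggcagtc
The Saa3 window holds a C/EBP match that starts at -99, and the Hpx window holds one at -200, counted with the start site as +1. The Serpina3n window holds an NF-kB match at -171 and the Il1rn window one at -51. Among the windows not printed, Il6 had an NF-kB match at -44 and a C/EBP match at -128, Lcn2 had a C/EBP match at -216, the second Il1rn window held the same NF-kB site as the third (at 30 from its own start), and those of Il1b and Tnf had no match to any of the 4 motifs. In all, 3 of the 8 genes held the NF-kB motif and 4 held the C/EBP motif, while 0 held the STAT motif and 0 the E-box. Counted by window, 4 of the 10 held the NF-kB motif, including the site that 2 Il1rn windows share. The C/EBP motif was in 4 of the 10, the STAT motif in 0 and the E-box in 0. Of 32851 mouse windows of the same length, 1.63% held the NF-kB motif, 10.8% the C/EBP motif, 8.30% the STAT motif and 7.15% the E-box. These matches describe letters only.

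Assigned reads ran from 20352008 to 72276733 per eWAT library, where ZT3 control replicate 1 was the deepest (next 22513786), and from 28544338 to 55639501 per iWAT library. All 9 adipocyte markers exceeded 1 CPM (reads scaled to the library total) in every library. Some libraries carried transcripts of other tissues. Vas deferens markers summed to 19072 and 15932 CPM in eWAT ZT3 control replicates 1 and 3, against 62.0 to 286 CPM in the other eWAT libraries. Spermatid markers summed to 5493 CPM in eWAT ZT3 shiftwork replicate 3, whose adipocyte sum of 11681 CPM was below the 15076 to 28260 CPM of the other eWAT libraries. The main fold changes that rest on these 3 ZT3 libraries are given with and without them. In iWAT, B cell and lymph node markers summed to 988 and 1757 CPM in control replicates 1 and 2 (at most 43.0 CPM in the other iWAT libraries), and skeletal muscle markers summed to 42603, 704 and 147 CPM in shiftwork replicates 1 to 3, against 135, 64.2 and 89.1 CPM in control. In eWAT ZT12 shiftwork replicate 2, intestine markers summed to 109 CPM and hepatocyte markers to 308 CPM, against at most 40.3 and 29.7 CPM in the other eWAT libraries.

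Haptoglobin was the most abundant of the 10 transcripts in all 6 groups. Per transcript length, Hp averaged 2346 ± 271 FPKM in eWAT at ZT12 under shiftwork and 2128 ± 328 FPKM at ZT12 in control (SD, n = 3 each), which placed it 4th and 5th of 24091 genes. Its means at ZT3 were 926 ± 481 FPKM under shiftwork and 584 ± 173 FPKM in control (SD, n = 3 each). Hp binds free haemoglobin. Serpina3n, a serine protease inhibitor, and Orm1, a lipid-binding plasma glycoprotein, came next, with 288 ± 43.95 and 178 ± 3.54 FPKM at ZT12 under shiftwork (SD, n = 3). The cytokines were scarce: at ZT12 under shiftwork, Tnf averaged 0.622 ± 0.188 FPKM, Il1b 0.257 ± 0.0370 FPKM and Il6 0.0327 ± 0.0320 FPKM (SD, n = 3). These FPKM values are after subtraction of the 0.1 that the deposited values hold as an added constant. In iWAT, which the authors scaled separately as RPKM, Hp averaged 2401 ± 1157 RPKM under shiftwork and 773 ± 177 RPKM in control (SD, n = 3 each). All of these are bulk levels, in which fewer cells of a type and less RNA per cell cannot be told apart.

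**Figure D1:**
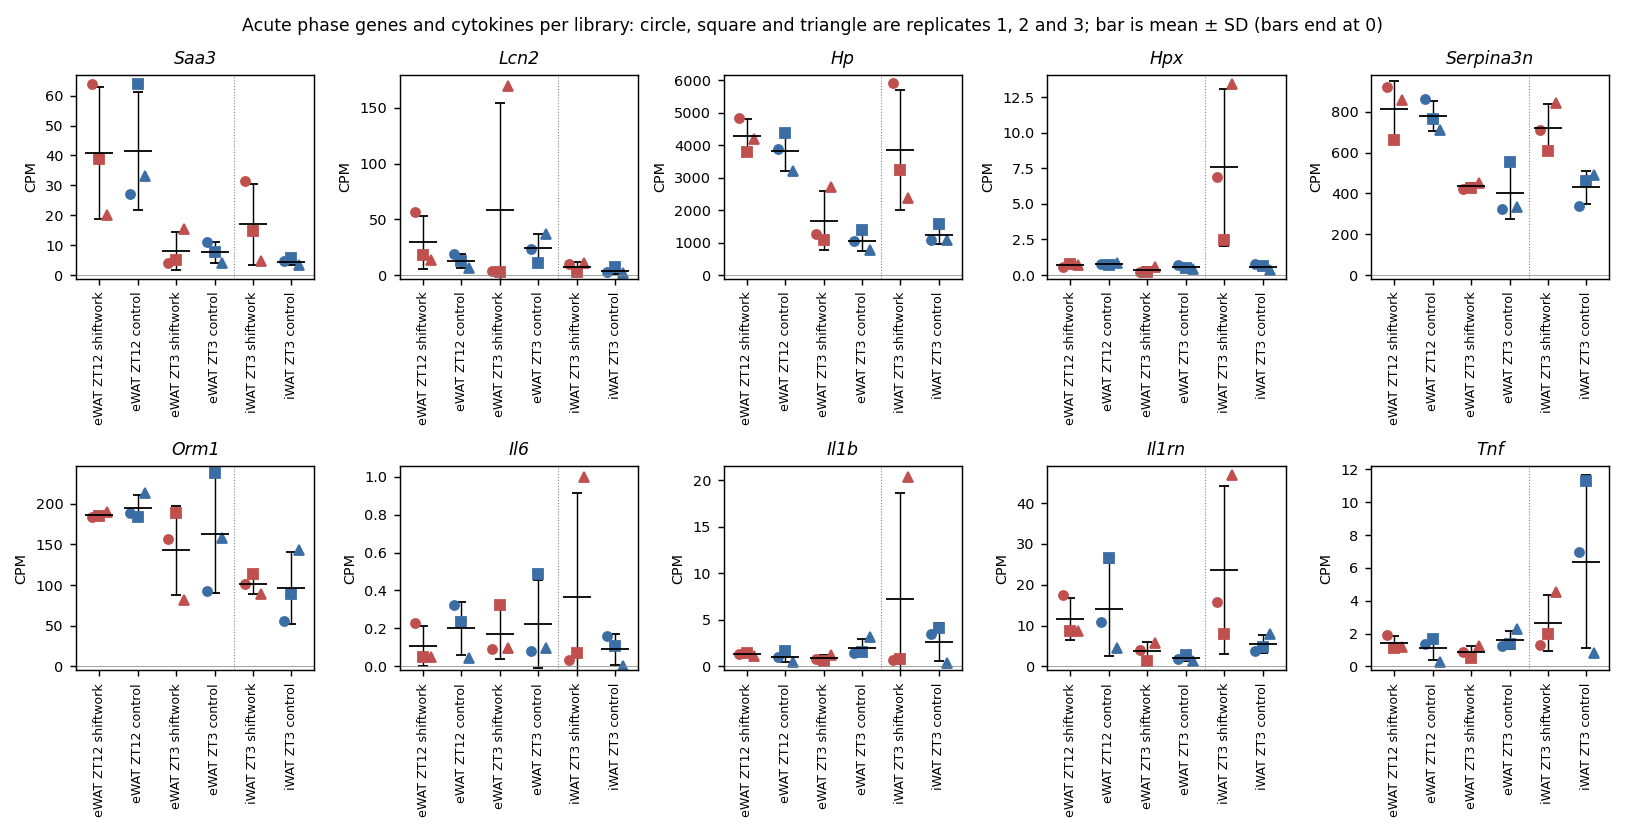
Level of each of the 10 genes (CPM, linear axes that differ between panels) in each library, by group, with eWAT groups left of iWAT groups and shiftwork left of control within each pair; points are libraries and bars are the mean ± SD of 3 libraries. Hp stood at 3191 to 4836 CPM in the 6 eWAT libraries of ZT12 and at 763 to 2708 CPM in the 6 of ZT3, and Lcn2 reached 169 CPM in 1 ZT3 shiftwork library.

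Time of day under the control schedule gave the one call among the 10 genes: Hp rose at ZT12. Hp (chromosome 8, 109575128 to 109579172) stood at 3872, 4389 and 3191 CPM in control eWAT at ZT12, against 1047, 1382 and 763 CPM at ZT3. Every ZT12 library was above every ZT3 library. The log2 fold change was 1.87 ± 0.34 (SE; 3.65-fold; adjusted p = 0.0248, edgeR quasi-likelihood test, Benjamini-Hochberg over 15141 genes). That is 1 gene called higher of the 9 tested, where 2.93% of all genes tested were called higher and 3.69% in either direction. Leaving out all 3 ZT3 libraries with other tissues, which keeps 1 control library at ZT3 that is assumed to vary like the other groups, left Hp called, with a log2 fold change of 1.33 (adjusted p = 0.0230). The call was lost without any 1 of ZT3 control replicate 1 or 3, ZT12 control replicate 1, 2 or 3, or ZT12 shiftwork replicate 2 or 3, with log2 fold changes of 1.64 to 1.96 and adjusted p-values of 0.0548 to 0.133. Over the 18 alternatives the log2 fold change of Hp was 1.33 to 2.18 and its adjusted p 2.68e-06 to 0.133.

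Saa3, Il1rn and Serpina3n had fold changes in the same direction that missed the threshold. Saa3 (chromosome 7, 46711998 to 46715676), a serum amyloid A made by macrophages and fat cells, stood at 27.0, 63.8 and 33.2 CPM at ZT12, against 11.1, 7.60 and 4.13 CPM at ZT3. Its log2 fold change was 2.49 ± 0.59 (SE, adjusted p = 0.0502 by edgeR). Il1rn, which encodes the antagonist that occupies the interleukin-1 receptor without signalling, stood at 10.9, 26.6 and 4.49 CPM at ZT12, against 1.81, 2.71 and 1.42 CPM at ZT3. Its log2 fold change was 2.83 ± 0.69 (SE, adjusted p = 0.0524 by edgeR). Serpina3n (chromosome 12, 104406708 to 104414329) stood at 861, 764 and 713 CPM at ZT12, against 325, 552 and 336 CPM at ZT3, a log2 fold change of 0.96 ± 0.25 (SE, adjusted p = 0.0640 by edgeR). For all 3 genes each ZT12 library was above each ZT3 library. Without the 3 ZT3 libraries, the log2 fold change of Serpina3n was 0.36 (adjusted p = 0.267), while those of Saa3 and Il1rn were 2.31 (adjusted p = 0.122) and 2.22 (adjusted p = 0.261). DESeq2 called Hp, Saa3, Il1rn and Serpina3n, but over all genes it also called more than the 559 that edgeR called. Its count over all genes is given under how the results depend on the processing.

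Hpx, whose product hemopexin binds free haem, was near the low-count limit, at 0.782, 0.696 and 0.861 CPM at ZT12, against 0.692, 0.489 and 0.442 CPM at ZT3. These groups did not overlap, by a margin of 0.696 against 0.692 CPM, and the log2 fold change was 0.57 ± 0.41 (SE, adjusted p = 0.468; 0.53 without the 3 ZT3 libraries). In total, 5 genes were higher at ZT12 without overlap, where 15.98% of all genes tested were, and 0 were lower without overlap, where 14.96% of all genes were. Among the cytokines the signs were opposite, with log2 fold changes of -0.91 ± 0.48 for Il1b (adjusted p = 0.303) and -0.50 ± 0.58 for Tnf (SE, adjusted p = 0.688), and of -0.71 and -0.41 without the 3 ZT3 libraries. Over the 9 genes tested the median log2 fold change was 0.57, against -0.01 over all genes tested.

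Macrophage markers moved in the same direction as Hp, Saa3, Il1rn and Serpina3n, and opposite to Il1b, Tnf and Lcn2. All 11 macrophage markers had log2 fold changes above 0 at ZT12 against ZT3 in control. Of the 11, 3 were called higher, where 2.93% of all genes tested were. The markers summed to 1262 to 2457 CPM at ZT12 and to 733 to 810 CPM at ZT3 in control eWAT, and no marker was at 0 in any eWAT library. B cell and lymph node markers went the other way, with a sum of 6.26 to 11.4 CPM at ZT12 and 33.7 to 52.3 CPM at ZT3. Hepatocyte markers summed to 12.2 to 19.4 CPM at ZT12 and to 17.5 to 22.1 CPM at ZT3, while Hp alone stood at 3191 to 4389 CPM at ZT12 and 763 to 1382 CPM at ZT3. Neutrophil markers summed to 10.5 to 19.8 CPM at ZT12 and to 13.7 to 17.5 CPM at ZT3, with Ly6g and Ngp at 0 in all 3 control libraries of ZT12. Of 11 neutrophil markers, 2 exceeded 1 CPM in each control library of ZT12, against 3, 3 and 4 at ZT3. The part of macrophage and lymphocyte transcripts in the levels of the 10 genes was not tested.

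Under shiftwork the difference between times had the same sign as in control for each gene tested except Il1b and Tnf, but no gene was called. Hp stood at 4836, 3791 and 4196 CPM at ZT12, against 1259.7, 1069 and 2708 CPM at ZT3, a log2 fold change of 1.38 ± 0.34 (SE, adjusted p = 0.280 by edgeR). The groups did not overlap, and ZT3 replicate 3, the library with spermatid transcripts, was the highest of its group. Saa3 stood at 63.9, 38.9 and 20.0 CPM at ZT12, against 3.87, 5.05 and 15.3 CPM at ZT3, a log2 fold change of 2.39 ± 0.59 (SE, adjusted p = 0.280). Serpina3n stood at 921, 662 and 858 CPM at ZT12, against 424, 426 and 453 CPM at ZT3, a log2 fold change of 0.90 ± 0.25 (SE, adjusted p = 0.280). Il1rn stood at 17.6, 8.56 and 8.75 CPM at ZT12, against 4.10, 1.39 and 5.72 CPM at ZT3, a log2 fold change of 1.66 ± 0.66 (SE, adjusted p = 0.284). These 4 genes were higher at ZT12 without overlap, where 10.2% of all genes tested were. Lower values without overlap were found in 0 of the 9 genes and in 5.601% of all genes. All 11 macrophage markers again had log2 fold changes above 0, with sums of 1523 to 3009 CPM at ZT12 and 604 to 1238 CPM at ZT3.

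The count of 0 genes under shiftwork held for the whole table, since edgeR called 0% of 15141 genes there. At an unadjusted p under 0.05, 5 of the 9 genes tested passed, among 2461 of all genes. DESeq2 called 3 of the genes (Hp, Saa3 and Serpina3n) and 296 in all. Without the 3 ZT3 libraries with other tissues, Hp was called, with a log2 fold change of 1.77 (adjusted p = 0.0141). The values without them were 3.08 for Saa3 (adjusted p = 0.0644), 0.83 for Serpina3n (adjusted p = 0.0531), 1.96 for Il1rn (adjusted p = 0.204) and 1.61 for Hpx (adjusted p = 0.126). With all 12 libraries, Hpx had a log2 fold change of 1.08 ± 0.42 (SE, adjusted p = 0.281), Tnf of 0.71 ± 0.59, Il1b of 0.59 ± 0.48 and Orm1 of 0.35 ± 0.40. The median over the 9 genes was 0.90, against -0.03 over all genes tested.

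**Figure D2:**
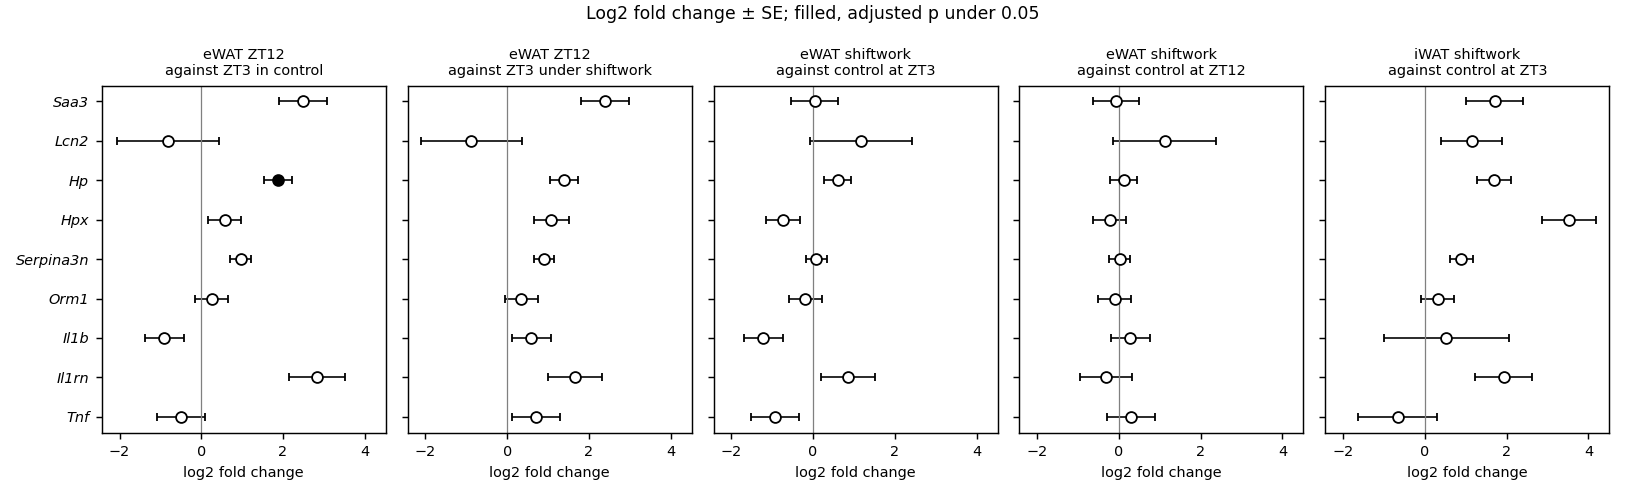
Log2 fold change ± SE of the 9 genes tested in the comparisons of time and of schedule, from edgeR in eWAT and limma in iWAT; filled symbols are calls at adjusted p under 0.05. Hp at ZT12 against ZT3 in control, at 1.87, is the one call, and Hpx under shiftwork in iWAT, at 3.53, is the highest value.

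Shiftwork against control at ZT3 in eWAT gave lower cytokine values that did not pass the test. Il1b (chromosome 2, 129364578 to 129371139), the precursor of the pyrogen interleukin-1 beta, stood at 0.810, 0.602 and 1.22 CPM under shiftwork, against 1.41, 1.55 and 3.10 CPM in control. Tnf (chromosome 17, 35199367 to 35202007) stood at 0.855, 0.509 and 1.22 CPM under shiftwork, against 1.26, 1.33 and 2.26 CPM in control. Both genes were lower under shiftwork in every library, as were 5.28% of all genes tested. None of the 9 was higher without overlap (0 of 9), where 5.36% of all genes were. The log2 fold changes were -1.22 ± 0.48 for Il1b (SE, adjusted p = 0.226 by edgeR) and -0.92 ± 0.59 for Tnf (SE, adjusted p = 0.418). Leaving out the 3 ZT3 libraries left values of -1.20 for Il1b and -1.03 for Tnf. B cell and lymph node markers moved with both genes, with log2 fold changes above 0 in 0 of 7 tested and a median of -1.30. Their sums were 7.65, 6.30 and 40.8 CPM under shiftwork, against 37.6, 33.7 and 52.3 CPM in control, and replicate 3 was the highest of each group for the markers, Il1b and Tnf alike. Mesothelial and neutrophil sums were also highest in replicate 3 of each group, at 274 and 16.1 CPM under shiftwork and 337 and 17.5 CPM in control. Log2 fold changes were above 0 for 1 of 8 mesothelial and 1 of 4 neutrophil markers tested, but for 10 of 11 macrophage markers. The part of these markers in the cytokine values was not tested.

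The acute phase genes and Il1rn overlapped between schedules at ZT3, and the signs of Hp, Saa3, Serpina3n and Il1rn turned without the 3 ZT3 libraries. Without those libraries, replicate 2 was the only control library left at ZT3. It was the highest control library for Hp (1382 CPM), Serpina3n (552 CPM) and Il1rn (2.71 CPM), but not for Saa3 (7.60 CPM). Hp had a log2 fold change of 0.60 ± 0.33 (SE, adjusted p = 0.357 by edgeR), and 1259.7 and 1069 CPM in shiftwork replicates 1 and 2 lay within the control range of 763 to 1382 CPM. Without the 3 ZT3 libraries the value for Hp was -0.32, while with single libraries left out it was 0.18 to 0.91. That for Saa3 was 0.03 ± 0.57 (SE), and -0.84 without them. Il1rn had 0.86 ± 0.66 (SE) and -0.05 without them, and Serpina3n had 0.08 ± 0.25 (SE) and -0.45 without them. Hpx stood at -0.74 ± 0.42 (SE, adjusted p = 0.370), at -1.30 without them and at -1.31 to -0.47 with single libraries left out. Of the 9 genes tested, 0 were called at ZT3, with 1 at an unadjusted p under 0.05. All genes gave 0% called, 2847 at an unadjusted p under 0.05 and, by DESeq2, 662 calls with 0 among the 9.

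At ZT12 no gene passed the test between schedules, and every adjusted p was 1. Hp averaged 4274 ± 527 CPM under shiftwork and 3818 ± 601 CPM in control (SD, n = 3 each), a log2 fold change of 0.12 ± 0.33 (SE). Serpina3n averaged 814 ± 135 CPM under shiftwork and 779 ± 75.2 CPM in control (SD, n = 3 each), a log2 fold change of 0.01 ± 0.25 (SE). Saa3 had -0.07 ± 0.56, Orm1 -0.11 ± 0.40, Hpx -0.23 ± 0.41 and Il1rn -0.32 ± 0.64 (SE). Il1b had 0.28 ± 0.48 and Tnf 0.28 ± 0.59 (SE). All 10 genes overlapped between schedules at ZT12, where 8.53% of genes tested were higher and 4.06% lower without overlap. Of the 9 genes, 0 were called and 0 had an unadjusted p under 0.05, among 0% called and 355 at an unadjusted p under 0.05 over all genes. DESeq2 called 12 genes, with 0 of the 9 among them. Mesothelial markers summed to 419 CPM in shiftwork replicate 1, against 48.7 to 136 CPM in the other 5 libraries of ZT12.

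The interaction of schedule and time tested whether the difference between times itself differed with the schedule. The comparisons of time and of schedule share the same 4 groups of libraries. The interaction was -0.48 ± 0.47 for Hp (log2, SE, adjusted p = 0.708 by edgeR) and 1.49 ± 0.68 for Il1b (adjusted p = 0.494). These values were 0.44 for Hp and 1.49 for Il1b without the 3 ZT3 libraries. No gene was called (0 of the 9 and 0% of all genes tested), while 0 of the 9 and 1535 of all genes had an unadjusted p under 0.05. DESeq2 called 192 genes in all. A call in control and none under shiftwork therefore does not show that the rise of Hp differed between schedules.

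In iWAT at ZT3, the acute phase genes Hpx, Hp and Serpina3n stood higher in every shiftwork library, though limma called none. Hpx (chromosome 7, 105591611 to 105600116) stood at 6.87, 2.45 and 13.4 CPM under shiftwork, against 0.755, 0.628 and 0.357 CPM in control. Hp stood at 5919.8, 3239.9 and 2366 CPM under shiftwork, against 1071, 1565 and 1075 CPM in control. Serpina3n stood at 713, 607 and 843 CPM under shiftwork, against 339, 463 and 492 CPM in control. For these 3 genes every shiftwork library was above every control library, as for 7.34% of all genes tested. Lower values without overlap were found in 0 of the 9 genes and in 5.59% of all genes. On the scale of log2(normalized signal + 1), where the signal is the authors' read count divided by a library factor and not CPM, the fold changes were 3.53 ± 0.67 for Hpx, 1.70 ± 0.42 for Hp and 0.89 ± 0.28 for Serpina3n (SE), each with an adjusted p of 0.688 by limma over 16387 genes.

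Saa3 and Il1rn overlapped between schedules in iWAT. Saa3 stood at 31.6, 14.6 and 4.78 CPM under shiftwork, against 4.69, 5.58 and 3.25 CPM in control, a log2 fold change of 1.71 ± 0.69 (SE, adjusted p = 0.688 by limma). Il1rn stood at 15.7, 8.02 and 46.9 CPM under shiftwork, against 3.67, 4.85 and 8.05 CPM in control, a log2 fold change of 1.93 ± 0.70 (SE, adjusted p = 0.688). Shiftwork replicate 3 was the lowest of its group for Saa3 and the highest for Il1rn. The cytokines were uneven: Il1b reached 20.3 CPM in shiftwork replicate 3, beside 0.667 and 0.771 CPM in the other shiftwork libraries and 3.45, 4.15 and 0.325 CPM in control. Tnf stood at 1.30, 1.997 and 4.54 CPM under shiftwork, against 6.99, 11.3 and 0.811 CPM in control. Their log2 fold changes were 0.52 ± 1.53 for Il1b and -0.67 ± 0.97 for Tnf (SE). The 2 control libraries with the higher Il1b and Tnf were those with B cell and lymph node transcripts, and without them, with 1 control library left, the value was 2.64 for Il1b and 1.43 for Tnf. The part of those transcripts was not tested.

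All genes of the iWAT table gave 0% called, with 5 of the 9 genes and 1094 of all genes at an unadjusted p under 0.05. The edgeR test on the recovered reads called 0 genes, and DESeq2 on the same reads called 631, with 4 of the 9 among them (Hpx, Hp, Saa3 and Il1rn). In the authors' deposited table the log2 fold changes were 3.31 for Hpx (adjusted p = 1.70e-05) and 1.68 for Hp (adjusted p = 0.00984). In the authors' deposited table Saa3, Il1rn and Serpina3n had adjusted p-values of 0.0819, 0.0879 and 0.194 and were listed as up, and Il1b had no p-value. The median log2 fold change over the 9 genes tested here was 1.14, against 0.02 over all genes tested.

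Hepatocyte markers stood beside Hpx in iWAT. Of 9 hepatocyte markers, 9, 1 and 9 exceeded 1 CPM in shiftwork replicates 1 to 3, against 2, 2 and 1 in control replicates 1 to 3. Their sums were 72.0, 16.8 and 107 CPM under shiftwork, against 39.2, 51.1 and 94.7 CPM in control, most of it Alb (14.9 to 73.5 CPM under shiftwork and 35.3 to 92.5 CPM in control). Shiftwork replicate 2, with the least of these markers, had 2.45 CPM of Hpx, above each control library. Neutrophil markers summed to 17.5, 14.4 and 145 CPM under shiftwork, against 34.6, 100.4 and 10.9 CPM in control. Of 11 neutrophil markers, 3, 3 and 6 exceeded 1 CPM under shiftwork, against 5, 8 and 2 in control. Ly6g stayed at or below 0.0698 CPM in all 6 libraries. Macrophage markers summed to 1023 to 2813 CPM under shiftwork and to 1349 to 2184 CPM in control, and 9 of 11 had log2 fold changes above 0. Skeletal muscle markers separated the same groups as Hpx, Hp and Serpina3n, with the sums given above higher in every shiftwork library than in every control library, 8 of 8 log2 fold changes above 0 and a median of 4.34. The part of all these markers in the iWAT values was not tested.

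The shiftwork effect in iWAT minus that in eWAT at ZT3 was 4.32 ± 0.78 for Hpx (log2, SE, adjusted p = 0.0907 by limma) and 1.14 ± 0.53 for Hp (adjusted p = 0.441). None of the 9 genes tested was called (0 of 9), where 0.0127% of 15748 genes were called, and 2 of the 9 had an unadjusted p under 0.05, as did 1781 of all genes. The values without the 3 ZT3 libraries were 4.74 for Hpx (adjusted p = 0.160) and 2.05 for Hp (adjusted p = 0.258). Hpx was called when 1 of 4 libraries was left out: eWAT ZT3 control replicate 2, eWAT ZT3 shiftwork replicate 3, iWAT control replicate 3 or iWAT shiftwork replicate 2, with log2 values of 4.10 to 5.01 and adjusted p-values of 0.0158 to 0.0484. Over all alternatives the adjusted p of Hpx was 0.0158 to 0.276. Both schedules of eWAT at ZT3 held Hpx at 0.1801 to 0.692 CPM.

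Lcn2, Orm1 and Il6 overlapped between the groups in every comparison of time or schedule, and none was called. Lcn2, whose product lipocalin 2 binds bacterial siderophores, stood at 3.78, 2.92 and 169 CPM in eWAT at ZT3 under shiftwork, against 23.4, 11.1 and 37.2 CPM in control. The highest library was 58.1 times the lowest within that shiftwork group, and it was the library with spermatid transcripts. Without that library alone the log2 fold change at ZT3 was -2.73, and with it 1.17 ± 1.25 (SE, adjusted p = 0.654 by edgeR). At ZT12 Lcn2 stood at 56.9, 17.6 and 13.6 CPM under shiftwork, against 19.2, 12.99 and 6.57 CPM in control, a log2 fold change of 1.12 ± 1.26 (SE). Its log2 fold changes of ZT12 against ZT3 were -0.88 ± 1.24 under shiftwork and -0.82 ± 1.25 in control (SE). In iWAT it stood at 9.73, 2.45 and 10.4 CPM under shiftwork, against 2.64, 6.77 and 1.72 CPM in control, a log2 fold change of 1.14 ± 0.74 (SE, adjusted p = 0.694 by limma) that was 0.78 to 1.86 over 13 alternatives. Mesothelial markers were high in some of the same eWAT libraries. They summed to 274 CPM in ZT3 shiftwork replicate 3, 315 and 337 CPM in ZT3 control replicates 1 and 3, and 419 CPM in ZT12 shiftwork replicate 1. Their part in the Lcn2 values was not tested.

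Orm1 was the steadiest of the genes at ZT12, with 183, 186 and 190.3 CPM under shiftwork and 188, 183 and 214 CPM in control. At ZT3 it stood at 157, 189 and 81.6 CPM under shiftwork, against 93.0, 238 and 158 CPM in control, so the schedules overlapped. The 2 lowest eWAT libraries, at 81.6 and 93.0 CPM, were among the 3 with other tissues, and no comparison called it. In iWAT Orm1 averaged 101 ± 12.2 CPM under shiftwork and 96.35 ± 43.97 CPM in control (SD, n = 3 each). Il6 was close to undetected, with 1 to 11 reads per eWAT library and 0 to 29 per iWAT library, and it was not tested. Its highest level was 0.998 CPM in iWAT shiftwork replicate 3. It had 0 reads in iWAT control replicate 3, which allows up to 0.0974 CPM at 3 reads, counting error only.

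Within eWAT some of the genes varied together across libraries. Over the 12 eWAT libraries, which share the time of day as a source of spread, the Pearson correlation of log2(CPM + 1) was 0.91 between Saa3 and Hp, 0.92 between Hp and Serpina3n and 0.91 between Hp and Il1rn. Il1b and Tnf had 0.87 with each other, and Lcn2 and Orm1 had -0.60. The genes outside the list most like Il1rn over the 12 libraries were the macrophage surface and lysosome genes Adgre1 (0.99) and Cd68 (0.98), followed by Cd84 (0.98). Those most like Hp were the phospholipid transfer protein gene Pltp (0.98), H2-DMb1 (0.97) and Tph2 (0.97). Saa3 was most like Dpep2, Csf2ra and Neurl2 (each 0.96), and Serpina3n most like Acoxl (0.94), Wfdc21 (0.93) and Slc36a1 (0.93). Lcn2 was most like Ptk7, Fcho1 (each 0.96) and Tuft1 (0.95), and Orm1 most like Map6, Aldh1l1 (each 0.97) and Rmdn3 (0.96). By Spearman rank correlation Orm1 had 0.69 with Aldh1l1, against 0.90 with Map6 and 0.85 with Rmdn3. The early response genes Snai1 (0.94), Junb (0.92) and Nab2 (0.92) were most like Il1b, and Lif (0.92), Serpinb10 (0.91) and Mapk1ip1l (0.91) most like Tnf.

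**Figure D3:**
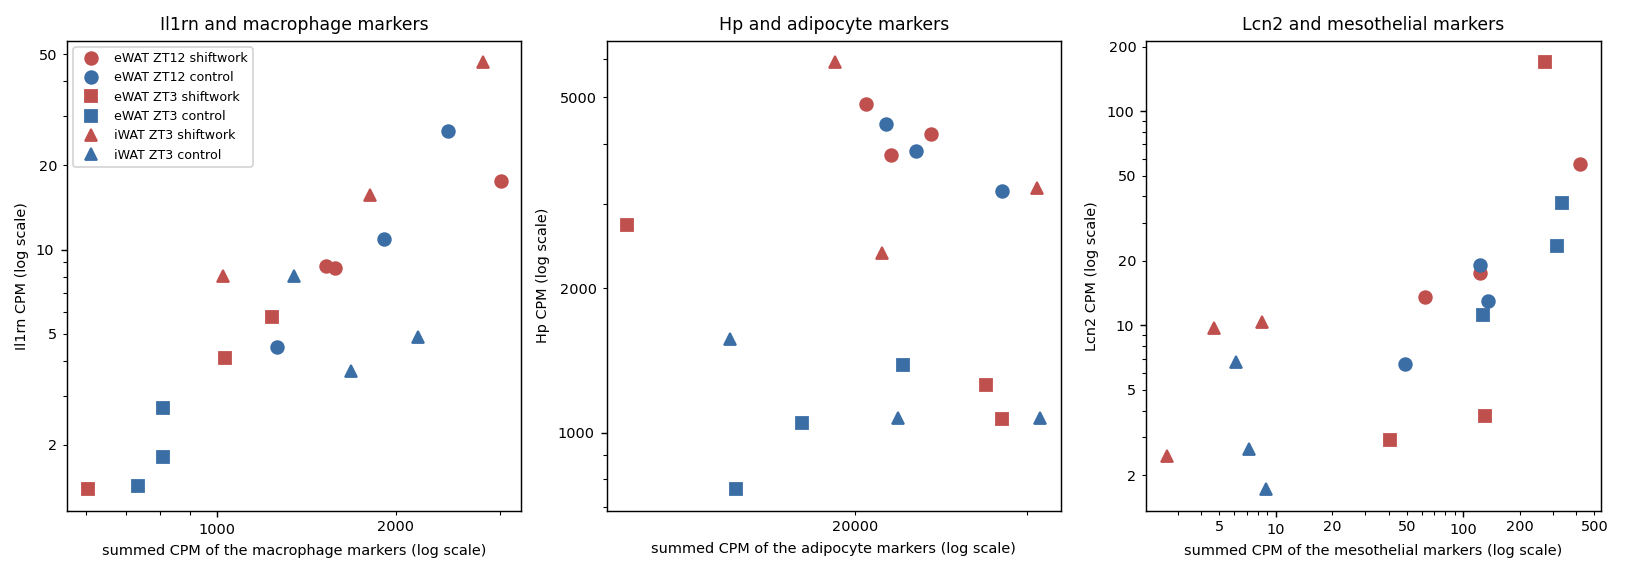
Levels (CPM, log axes) of Il1rn against summed macrophage markers, Hp against summed adipocyte markers and Lcn2 against summed mesothelial markers, 1 point per library, with red for shiftwork, blue for control, circles for eWAT ZT12, squares for eWAT ZT3 and triangles for iWAT ZT3. The eWAT libraries of ZT12 lie at 1262 to 3009 CPM of macrophage markers and those of ZT3 at 604 to 1238 CPM, while Hp separates these times at adipocyte sums that overlap and Lcn2 is highest, at 169 CPM, where mesothelial markers sum to 274 CPM.

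Other genes of the acute phase and cytokine pathways were counted over 5 lists. Among acute phase proteins outside the 10 genes, 2 of 14 tested rose at ZT12 against ZT3 in control eWAT and 0 fell, where 2.93% of all genes tested were called higher and 3.69% in either direction. Lbp, which carries bacterial lipopolysaccharide to its receptor, averaged 465 ± 8.86 CPM at ZT12 and 219.8 ± 56.4 CPM at ZT3 (SD, n = 3 each), a log2 fold change of 1.10 ± 0.21 (SE, adjusted p = 0.0253 by edgeR). Lrg1, a leucine-rich glycoprotein of plasma, had 1.48 ± 0.33 (SE, adjusted p = 0.0409). Of 14 genes of interleukin-6 family signalling, 3 rose and 0 fell, all of them receptors: Il6ra (1.05 ± 0.20, adjusted p = 0.0266), Osmr (0.98 ± 0.22, adjusted p = 0.0435) and Lifr (0.81 ± 0.18, adjusted p = 0.0429). Of 21 interleukin-1, TNF and inflammasome genes, 2 rose: Casp1, the protease that cleaves the interleukin-1 beta precursor (1.51 ± 0.29, adjusted p = 0.0269), and Irak3, an inhibitor of the pathway (0.67 ± 0.16, adjusted p = 0.0499). Tnip1, an inhibitor of NF-kB signalling, was the 1 riser of 15 NF-kB factors and targets (0.68 ± 0.12, adjusted p = 0.0208). Of 8 receptors and handlers of acute phase proteins, 0 were called, and Cd163, the haptoglobin-haemoglobin receptor of macrophages, had 1.37 ± 0.42 (SE, adjusted p = 0.0949). Without the 3 ZT3 libraries Il6ra alone of these 8 risers was called, and the other 7 had adjusted p-values of 0.0560 to 0.191. Among those 7, the log2 fold change shrank by over 1.5 times for Lbp (0.58), Osmr (0.53) and Casp1 (0.94). Of 18 alternatives, the call was lost in 15 for Irak3, 14 for Osmr, 13 each for Lifr and Lrg1, 9 for Lbp, 8 for Casp1 and 6 each for Il6ra and Tnip1.

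The median log2 fold changes of these lists at ZT12 against ZT3 in control were 0.46 for acute phase proteins, 0.18 for interleukin-6 signalling, 0.10 for interleukin-1 and TNF, 0.16 for NF-kB and 0.62 for receptors and handlers, against -0.01 over all genes tested. No gene of the 5 lists was called in any other comparison, though without the 3 ZT3 libraries Lrg1 was called at ZT12 against ZT3 under shiftwork (2.06, adjusted p = 0.0361). At ZT3 in eWAT, the chemokine gene Ccl2 had the lowest p of the NF-kB list, with 7.51 ± 0.77 CPM under shiftwork and 40.2 ± 28.2 CPM in control (SD, n = 3 each), a log2 fold change of -2.46 ± 0.71 (SE, adjusted p = 0.207 by edgeR; -2.85 without the 3 ZT3 libraries). In iWAT, Ccl2 averaged 46.98 ± 50.02 CPM under shiftwork and 7.30 ± 2.96 CPM in control (SD, n = 3 each), with 2.39 ± 0.73 (SE, adjusted p = 0.688 by limma). Most of its list went the other way in iWAT: 4 of 15 NF-kB factors and targets had log2 fold changes above 0. Birc3 of that list had -1.01 ± 0.67 (SE, adjusted p = 0.695 by limma). The iWAT medians were -0.37 for NF-kB, 0.77 for acute phase proteins, 0.16 for interleukin-6 signalling, 0.20 for interleukin-1 and TNF and 0.44 for receptors and handlers, against 0.02 over all genes tested. The difference between the depots was 4.38 ± 1.10 for Ccl2 (SE, adjusted p = 0.252). Lrg1 averaged 617 ± 79.3 CPM under shiftwork and 297 ± 52.25 CPM in control in iWAT (SD, n = 3 each), with 1.21 ± 0.21 (SE, adjusted p = 0.688). Lbp in iWAT had 1.01 ± 0.38, Serpina3m 1.62 ± 0.41 and Cebpb, which encodes a C/EBP factor, 0.97 ± 0.34 (SE, each with an adjusted p of 0.688).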

How the data were processed

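RNA was extracted with Trizol, DNase and a column, and mRNA libraries were sequenced as single reads of 51 cycles, per the labels' protocols. Per the submitters' processing notes, STAR and HTSeq were used, as were edgeR, limma and DESeq2, with the builds mm10 and GRCm38 and no versions. Strand counting is not stated, so antisense reads cannot be told apart. Reads of near-identical paralogs (Orm1, Orm2 and Orm3, the Saa genes, the Serpina3 family) may be split between them or left uncounted. For eWAT the authors deposited whole-number read counts, and log2 FPKM values to which 0.1 FPKM had been added before the log (all 289092 values lay within 0.00514 of log2(FPKM + 0.1) rebuilt from the counts and lengths). That constant was subtracted here. The deposited gene length column served only for that check. For iWAT the table deposited as read counts holds normalized signal: each value is a whole multiple of a step per library (100% of 310956 values, tolerance 0.001), and the whole reads so recovered gave CPM. The authors also deposited RPKM values for iWAT, and for each gene a log2 fold change with its p-value from their own comparison.

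In R 4.3.3, edgeR 4.0.16 fitted the eWAT counts of 12 libraries (quasi-likelihood, robust, TMM, filterByExpr with minimum count 10 and total 15). The filter corresponded to 0.462 CPM in at least 3 libraries, which Hpx reached in 9 of 12 libraries, Tnf in 11 and Il6 in 1, so 9 of 10 genes were tested. For iWAT, limma 3.58.1 (trend, robust) was run on log2(value + 1) of genes at 10 or more in 3 libraries, since the signal is not a count; this understates changes of low genes. The depot difference used limma on 18 libraries, with eWAT counts divided by median-ratio size factors. A call needed an adjusted p (Benjamini-Hochberg, all genes tested) under 0.05, and the SE in edgeR was obtained by dividing the absolute log2 fold change by the root of its F statistic. Alternatives were DESeq2 1.42.0, other scaling, no filter, a pseudocount of 0.1, log2(RPKM + 0.1), a replicate block, only the groups compared, each library left out, and the 3 ZT3 libraries left out. Leaving out the 2 iWAT control libraries rich in B cell transcripts was added after seeing the data. The members and the 5 pathway and 10 marker lists were chosen with earlier results of these data known. Named genes are the members, the 3 genes most like each member of at least 1 CPM, and genes of each pathway list that were called or, failing that, among the 3 with the smallest p. The fits were run on simulated counts with the same spread for every gene and no libraries that stand apart. That run therefore does not show how the fits perform on these libraries. The floor of 3 reads covers counting error only, while each ± is an SD or SE that includes spread between libraries.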

Additional observations from a re-analysis of the deposited data

How the results depend on the processing

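The one call among the 9 genes tested, Hp at ZT12 against ZT3 in control, depended on the fit. DESeq2 called 4 of the genes there, a fit of only the groups compared called 2, and the replicate block called 0 (Hp adjusted p = 0.0552). Leaving out single libraries gave 0 to 4: 0 without ZT3 control replicate 1 or 3, ZT12 control replicate 1, 2 or 3 or ZT12 shiftwork replicate 2 or 3, 2 without ZT3 control replicate 2, and 4 without ZT3 shiftwork replicate 3. Under shiftwork the count was 3 by DESeq2 and 1 without the 3 ZT3 libraries with other tissues, and in iWAT it was 4 by DESeq2 on recovered reads. For the depot difference, leaving out single libraries gave 0 to 1. Over all genes, the 559 calls at ZT12 against ZT3 in control were 2214 by DESeq2, 320 without the filter, 298 with the replicate block and 1 to 2744 with single libraries left out. At ZT3, 0 calls became 662 by DESeq2, 9 without the 3 ZT3 libraries and 0 to 403 with single libraries left out. Other counts of 0 over all genes became 12 at ZT12, 296 under shiftwork, 192 for the interaction and 631 in iWAT by DESeq2, 75 and 7 for time under shiftwork and the interaction without the 3 ZT3 libraries, and up to 186 for the interaction and 360 in iWAT with single libraries left out. The 2 calls of the depot difference were 0 to 492. The replicate numbers gave no sign of pairing libraries within a depot. Deviations of same-numbered eWAT libraries correlated at -0.25 to 0.24 over 18 pairs, 4 of them over 0.1, and all 3 iWAT pairs were below 0. Such correlations cannot show that libraries come from separate animals. Some sample descriptions share a number between eWAT at ZT12 and iWAT at ZT3, and what that number identifies is not stated. The replicate block changed no other count among the 9 genes.

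Some signs turned, and the cause was not tested. Leaving out the 3 ZT3 libraries kept 1 control library at ZT3. The log2 values at ZT3 were then -0.84 for Saa3, -1.81 for Lcn2, -0.32 for Hp, -0.45 for Serpina3n, -0.051 for Il1rn and 0.28 for Irak4. Those of ZT12 against ZT3 in control were 0.073 for Lcn2 and -0.42 for Orm1, that of Lcn2 under shiftwork was 3.01 (0.090 with the replicate block), and the interaction of Hp was 0.44. Without the 2 iWAT control libraries rich in B cell transcripts, Orm1 stood at -0.54, Tnf at 1.43 and Birc3 at 0.59. Ranges with single libraries left out crossed 0 at ZT3 for Saa3 (-0.71 to 0.34), Lcn2 (-2.73 to 1.74), Serpina3n (-0.12 to 0.45) and Orm1 (-0.52 to 0.26). They crossed 0 at ZT12 for Saa3 (-0.52 to 0.38), Serpina3n (-0.062 to 0.14), Il1rn (-0.73 to 0.53), Il1b (-0.049 to 0.78) and Tnf (-0.17 to 0.70). They also did for ZT12 against ZT3 for Orm1 in control (-0.061 to 0.72) and Lcn2 under shiftwork (-1.75 to 3.02), and in iWAT for Orm1 (-0.087 to 0.74), Tnf (-1.72 to 0.048) and Il1b (-1.05 to 1.32). Depth limits Il6, Hpx, Il1b and Tnf in eWAT, where they held few reads.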
